A study of Homo sapiens with 12 samples.

Results

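The AP-1 factors described here are 8 genes: FOS, FOSB, FOSL1 and FOSL2 of the FOS family, JUN, JUNB and JUND of the JUN family, and ATF3. They were taken by gene symbol from a table that covers 20043 genes, and all 8 were on the array, read by 10 probes, 3 for ATF3 and 1 for each of the others. The cells were SK-OV-3, a human ovarian cancer line, transfected either with a scrambled shRNA (shCTRL) or with an shRNA to IRF-1 (shIRF1), and each kind was profiled with and without CDDP, the platinum drug cisplatin. That made 4 groups of 3 Illumina bead arrays. Per the labels RNA was taken after 24 hours of CDDP. The dose, the vector and the number of clones are not given in the sources used here, and neither is whether the 3 samples of a group were separate cultures, so the spread behind each p-value may be technical.

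AP-1 is a family of paired transcription factors. Its subunits carry a basic region that contacts DNA and a leucine zipper that joins a partner. FOS proteins need a JUN partner to bind DNA, whereas JUN proteins can also pair with each other. Several of the genes are immediate early genes, whose mRNA appears within minutes of growth factor or stress signals and is degraded quickly. DNA damage by cisplatin is known to activate the JNK and p38 kinases, which act on JUN and on factors that drive FOS and ATF3 transcription. In bulk samples a change in the share of cells that express a gene and a change in RNA per cell cannot be told apart.

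Values below are log2 signals after background correction and quantile normalization, and a gene passed at a limma p-value under 0.05 after Benjamini-Hochberg adjustment across the 17988 features tested. A probe was detected where its deposited detection p-value was under 0.05. Each array detected 38.2% to 44.7% of its 47313 probes, arrays of 1 group correlated at 0.974 to 0.987, and those of different groups at 0.921 to 0.979. SK-OV-3 identity was checked with 8 epithelial and ovarian markers. Of these, 5 were detected on all 12 arrays, among them ERBB2 at 10.79 to 12.63 and EPCAM at 9.94 to 11.64. KRT18 was detected on 11 arrays, but MUC16 on 5 (4.56 to 5.25) and WT1 on 3 (4.32 to 5.60), both near background. Of 8 markers of blood, endothelial, liver and glial cells, CD3E, HBB and GFAP were detected on no array, while ALB was detected on 12 arrays at 4.96 to 7.08 and CD14 on 10. The mean over these 8 markers was 4.69 to 4.74 under shCTRL, 4.98 to 5.28 under shCTRL with CDDP, 4.80 to 4.85 on shIRF1 arrays and 4.91 to 5.13 on shIRF1 arrays with CDDP, and the mean over the epithelial and ovarian markers was 8.75 to 8.96 without CDDP and 7.97 to 8.37 with it. With CDDP, 3 of the 8 epithelial and ovarian markers fell under shCTRL and 4 on shIRF1 arrays, against 13.5% and 11.5% of all features, and none rose. ERBB2 fell under both labels and EPCAM on shIRF1 arrays. Of the other markers 4 were tested. With CDDP 2 of them rose under shCTRL and 1 on shIRF1 arrays, against 13.5% and 10.5% of all features, and none fell. What these changes contribute to the CDDP results was not tested.

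IRF1, the shRNA target, stood at 8.30, 8.51 and 7.84 under shCTRL and at 8.59, 8.14 and 8.20 where the label names the IRF-1 shRNA. The difference without CDDP was 0.10 (SE 0.25, limma adjusted p = 0.902), so the shRNA label was not borne out by its target there. With CDDP, IRF1 read 9.97, 10.38 and 9.38 under shCTRL and 8.94, 9.08 and 9.26 with the IRF-1 shRNA label, without overlap. That difference was -0.82 (SE 0.25, limma unadjusted p = 0.00453, adjusted p = 0.0811), in the direction of the label, but it did not pass. The samples are therefore called arrays labelled shIRF1. Directions between shRNA labels follow the labels, without a drop of the target that passed in either state.

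The stretches just upstream of 6 of the genes are shown because they carry the short DNA letters that AP-1 and ATF or CREB dimers recognise, some in genes that rose with CDDP and some in genes that did not pass. The sequences are the 250 bases before the gene start, 5′ to 3′ on the strand of the gene, from RefSeq (build GRCh38.p14). Capitals mark every match, on either strand, to TGACTCA (the AP-1 element), TGACGTCA (the cyclic AMP response element), TGACATCA (the variant of the JUN promoter) or TGACGT, which also lies within TGACGTCA.
ATF3, chr1:212565157-212565406, plus strand: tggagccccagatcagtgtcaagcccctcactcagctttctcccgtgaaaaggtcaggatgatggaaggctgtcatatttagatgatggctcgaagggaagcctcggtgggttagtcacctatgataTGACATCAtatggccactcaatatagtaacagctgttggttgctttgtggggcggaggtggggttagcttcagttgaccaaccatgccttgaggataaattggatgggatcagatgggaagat
JUN, chr1:58784048-58784297, minus strand: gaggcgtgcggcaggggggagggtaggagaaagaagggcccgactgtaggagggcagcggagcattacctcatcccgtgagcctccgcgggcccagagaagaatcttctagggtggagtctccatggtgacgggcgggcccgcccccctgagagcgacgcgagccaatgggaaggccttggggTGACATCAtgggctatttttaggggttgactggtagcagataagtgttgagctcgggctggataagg
FOS, chr14:75278578-75278827, plus strand: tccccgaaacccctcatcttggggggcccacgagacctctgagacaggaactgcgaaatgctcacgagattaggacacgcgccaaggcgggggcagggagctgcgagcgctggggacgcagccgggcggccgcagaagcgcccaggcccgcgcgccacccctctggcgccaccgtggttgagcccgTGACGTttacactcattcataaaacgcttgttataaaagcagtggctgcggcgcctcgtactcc
FOSB, chr19:45467746-45467995, plus strand: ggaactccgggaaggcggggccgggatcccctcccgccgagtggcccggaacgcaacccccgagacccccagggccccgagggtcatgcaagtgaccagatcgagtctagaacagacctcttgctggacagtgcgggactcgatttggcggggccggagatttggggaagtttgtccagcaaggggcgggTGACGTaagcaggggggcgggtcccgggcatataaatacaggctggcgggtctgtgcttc
FOSL2, chr2:28392608-28392857, plus strand: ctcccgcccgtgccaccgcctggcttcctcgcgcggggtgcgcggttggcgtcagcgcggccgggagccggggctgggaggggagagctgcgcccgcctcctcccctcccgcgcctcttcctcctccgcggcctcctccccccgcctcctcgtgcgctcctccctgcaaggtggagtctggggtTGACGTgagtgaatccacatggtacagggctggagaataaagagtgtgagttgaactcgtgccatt
JUND, chr19:18281623-18281872, minus strand: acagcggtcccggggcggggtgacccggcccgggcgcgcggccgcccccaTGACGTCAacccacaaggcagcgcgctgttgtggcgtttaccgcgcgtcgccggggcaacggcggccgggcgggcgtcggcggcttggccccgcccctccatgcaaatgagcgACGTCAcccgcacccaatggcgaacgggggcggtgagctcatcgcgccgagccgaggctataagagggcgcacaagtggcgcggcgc

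TGACATCA stood 67 to 60 bases before the start of JUN and 123 to 116 before the ATF3 start shown. A TGACGT lay at nearly the same place in 3 FOS family genes, 64 to 59 bases before the start of FOS, 60 to 55 before FOSB and 66 to 61 before FOSL2. The JUND window held TGACGTCA at 200 to 193 bases and a further TGACGT at 87 to 82 on the other strand. TGACTCA was in none of these windows, and the JUNB window held none of the 4 motifs. For FOSL1 no upstream sequence was available, so it was not searched. Over all 35116 promoters of the same length, 2.37% held TGACATCA, 7.1% TGACGT, 1.65% TGACGTCA and 4.2% TGACTCA. For ATF3 2 starts are listed. The window of the other start, chr1:212614768-212615017, lies downstream of the one shown and had no match. Which start the ATF3 RNA came from was not tested. A match is a description of the letters and not a measured binding site.

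With CDDP under shCTRL, 5 of the 8 genes rose, none fell and 3 did not pass, against 13.5% of all features that rose, 13.5% that fell and 27% called in all. On arrays labelled shIRF1, 6 rose, none fell and 2 did not pass, against 10.5% of all features that rose, 11.5% that fell and 22% called in all. These comparisons use different arrays. The 5 genes that rose in both were ATF3, FOSB, FOS, JUN and JUNB, and FOSL1 rose on arrays labelled shIRF1. The log2 changes ran from 0.042 to 5.35 under shCTRL, with a median of 1.47, and from -0.028 to 5.12 on arrays labelled shIRF1, with a median of 1.46. Over all features the medians were 0.037 and 0.024. Arrays with and without CDDP did not overlap for 7 of the 8 genes under each label, all but JUND, against 40.2% and 36.9% of all features.

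**Figure D1:**
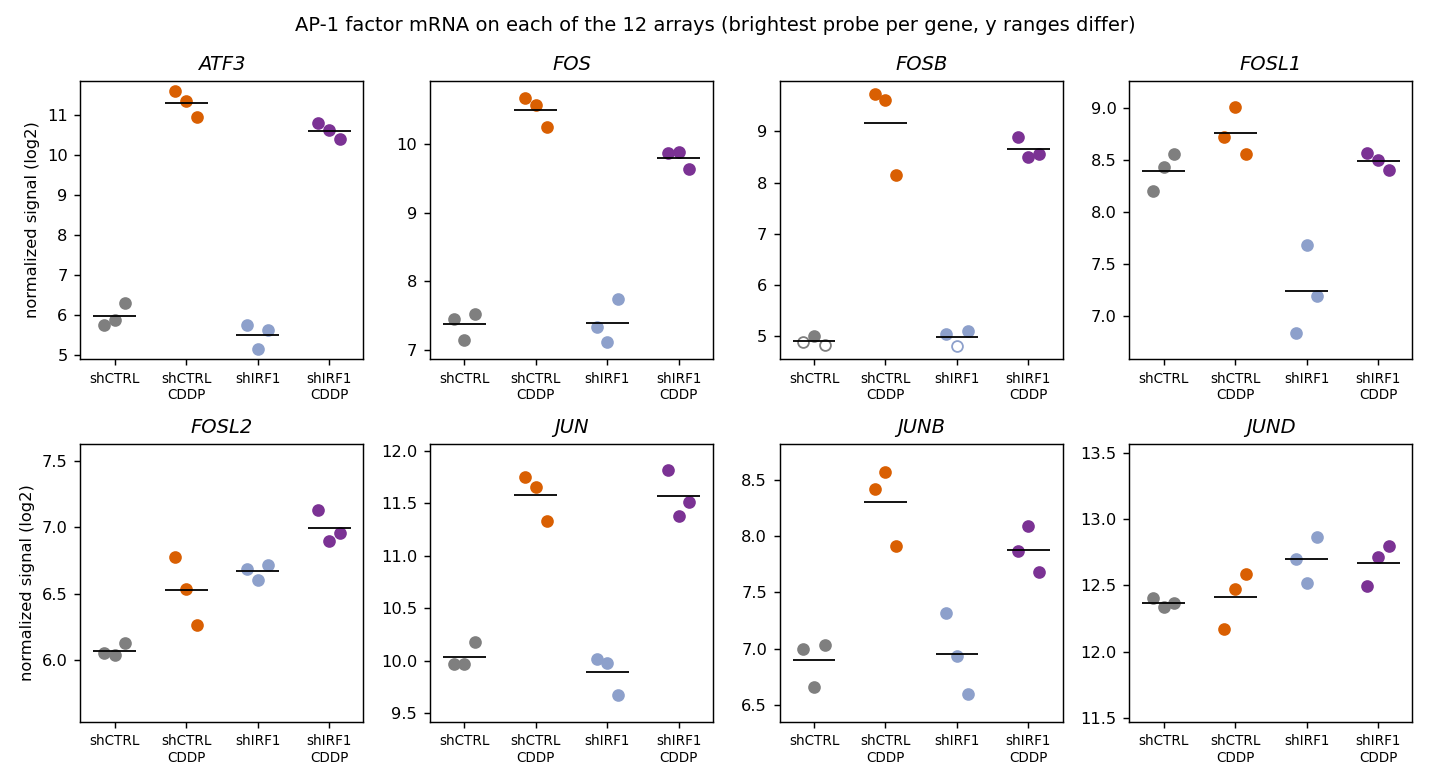
Normalized log2 signal of the brightest probe of each gene on the 12 arrays, by group. Points are arrays (open where the probe was not detected), bars are means of 3 arrays, and y ranges differ between panels. ATF3, FOS, FOSB, JUN and JUNB stand higher with CDDP under both labels, FOSL1 is lowest on shIRF1 arrays without CDDP, and JUND lies between 12.17 and 12.87 everywhere.

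FOS, the founding subunit, read 7.45, 7.15 and 7.53 under shCTRL and 10.67, 10.57 and 10.25 with CDDP. On arrays labelled shIRF1 it read 7.34, 7.12 and 7.74 without and 9.88, 9.88 and 9.64 with CDDP. The groups without CDDP overlapped, both groups with CDDP lay above them, and the 3 shCTRL arrays with CDDP were the highest of all. FOS rose 8.68-fold under shCTRL (log2 3.12, SE 0.20, limma adjusted p = 7.53e-08). With the IRF-1 shRNA label the rise was 5.27-fold (2.40, SE 0.20, adjusted p = 8.19e-07).

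FOSB, the close relative of FOS whose mRNA is scarce in most resting cells, was near background without CDDP. Its probe was detected on 1 of 3 shCTRL arrays (4.89, 5.01 and 4.84) and on 2 of 3 arrays labelled shIRF1 (5.06, 4.81 and 5.11). With CDDP it was detected on every array, at 9.73, 9.61 and 8.14 on the shCTRL arrays and at 8.88, 8.50 and 8.56 on those labelled shIRF1. The third shCTRL array with CDDP stood apart from the other two and gave that group an SD of 0.88, the widest spread of any of the 8 genes. The rise was 19.0-fold under shCTRL (4.25, SE 0.31, limma adjusted p = 2.62e-07) and, with the IRF-1 shRNA label, 12.6-fold (3.66, SE 0.31, adjusted p = 1.04e-06). Because the level without CDDP is near the limit of detection, the fold depends on the background step, and without background correction it was 2.67 and 2.19 on the log2 scale.

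FOSL1 (Fra-1), a FOS relative that lacks the strong activation domain of FOS and is common in invasive epithelial tumours, passed under 1 of the 2 labels. It read 8.20, 8.43 and 8.55 under shCTRL and 8.73, 9.01 and 8.56 with CDDP, groups that touched within 2 decimals without overlapping. On arrays labelled shIRF1 it read 6.84, 7.69 and 7.20 without and 8.57, 8.50 and 8.41 with CDDP. The shIRF1 arrays without CDDP were the 3 lowest of the 12, and with CDDP they came up to the shCTRL range. FOSL1 changed by 0.37 under shCTRL, which did not pass (SE 0.21, interval -0.09 to 0.82, limma adjusted p = 0.233), and rose 2.38-fold on arrays labelled shIRF1 (1.25, SE 0.21, adjusted p = 0.000526).

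FOSL2 (Fra-2), the other such relative, had small changes. It read 6.05, 6.03 and 6.12 under shCTRL, 6.77, 6.53 and 6.27 with CDDP, 6.68, 6.60 and 6.72 on arrays labelled shIRF1 and 7.13, 6.90 and 6.96 there with CDDP. The CDDP groups lay above their controls without overlap. The changes of 0.45 (SE 0.17, interval 0.10 to 0.81, limma adjusted p = 0.058) and 0.33 (SE 0.17, interval -0.03 to 0.69, adjusted p = 0.195) did not pass. Under shCTRL the change passed without the third CDDP array (0.58, adjusted p = 0.0232), one of 5 alternatives of 25 in which it did, with adjusted p-values of 0.0192 to 0.621 among them all.

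JUN, the JNK substrate that gives the family its name, read 9.97, 9.97 and 10.18 on the shCTRL arrays without CDDP and 10.02, 9.98 and 9.67 on those labelled shIRF1. With CDDP the shCTRL arrays read 11.75, 11.65 and 11.33, and those labelled shIRF1 read 11.82, 11.38 and 11.51. The labels overlapped in both states, and every CDDP array was above every array without the drug. JUN rose 2.90-fold under shCTRL (1.53, SE 0.18, limma adjusted p = 1.89e-05) and, with the IRF-1 shRNA label, 3.20-fold (1.68, SE 0.18, adjusted p = 1.16e-05).

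JUNB, which can oppose JUN at some promoters, lay at 6.66 to 7.03 on the 3 shCTRL arrays and read 8.42, 8.57 and 7.91 with CDDP. On arrays labelled shIRF1 it read 7.32, 6.94 and 6.60 without and 7.87, 8.09 and 7.68 with CDDP. It rose 2.65-fold (1.41, SE 0.22, limma adjusted p = 0.00024) and 1.90-fold (0.93, SE 0.22, adjusted p = 0.00719).

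JUND, the subunit that many cells make without a stimulus, had changes near 0. It read 12.40, 12.34 and 12.37 under shCTRL, 12.17, 12.48 and 12.59 with CDDP, 12.70, 12.52 and 12.87 on arrays labelled shIRF1 and 12.50, 12.72 and 12.80 there with CDDP. The groups with and without CDDP overlapped under both labels. The changes were 0.042 (SE 0.17, interval -0.33 to 0.41, limma adjusted p = 0.894) and -0.028 (SE 0.17, interval -0.40 to 0.34, adjusted p = 0.943), and the sign of the second turned with median scaling (0.022). Changes of a size within those intervals are not excluded with 3 arrays per group.

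ATF3, a stress-induced relative that pairs with JUN proteins or with itself, had the largest fitted rise of the 17988 features under both labels with these settings. Its detected probe read 5.74, 5.88 and 6.29 under shCTRL and 11.61, 11.37 and 10.97 with CDDP, then 5.74, 5.14 and 5.61 on arrays labelled shIRF1 and 10.81, 10.63 and 10.40 there with CDDP. On the linear scale the signal went from 116 to 175 up to 2412 to 3095 under shCTRL, and from 107 to 129 up to 1333 to 2024 on arrays labelled shIRF1. The rise was 5.35 (SE 0.22, limma adjusted p = 3.18e-09) and 5.12 (SE 0.22, adjusted p = 3.05e-09) on the log2 scale. Without background correction it was 4.27 and 3.79, still passing. The other 2 ATF3 probes, ILMN_1661109 and ILMN_1791346, were detected on no array, with signals of 71.5 to 99.1, so they give no level for the transcripts they read. ILMN_1791346 is annotated to the same transcript record as the detected probe.

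Ranked by rise among all features, FOS was number 21 under shCTRL and 46 on arrays labelled shIRF1, JUN 277 and 142, and JUNB 372 and 830. FOSL1 ranked 4402 under shCTRL and 379 on arrays labelled shIRF1. The genes lie on chromosomes 1, 2, 11, 14 and 19, and in GRCh38.p14 they span from 1830 bases (JUNB) to 55371 (ATF3). Of the 8, 7 are shorter than 27348 bases, the median span of the tested named genes. ATF3, which rose most, is longer by the span of the whole gene. Which of its 2 listed starts the RNA came from was not tested, so the length transcribed is not known.

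**Figure D2:**
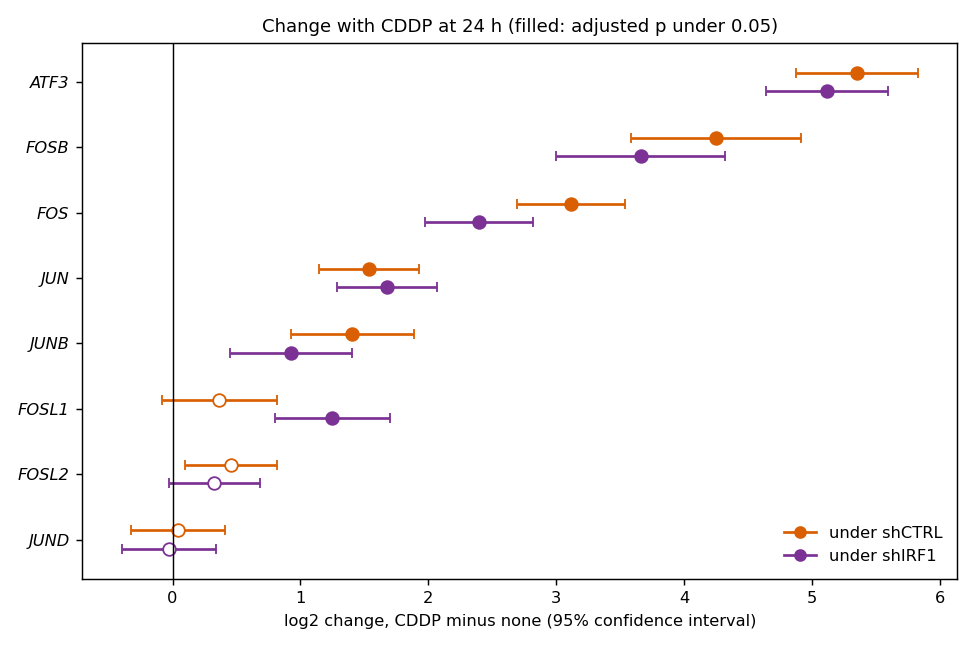
Log2 change with CDDP for each of the 8 genes under shCTRL (orange) and on arrays labelled shIRF1 (purple), with 95% confidence intervals from limma on 3 arrays per group. Filled points passed. ATF3 is at 5.35 and 5.12, JUND at 0.042 and -0.028, and FOSL1 is filled for shIRF1 alone.

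Whether the response itself differed between the labels was tested by the interaction, the CDDP change on arrays labelled shIRF1 minus that under shCTRL. By limma none of the 8 passed, against 0.0667% of all features (0.00556% with a positive value and 0.0612% with a negative one). An unadjusted limma p under 0.05 was found for 2 of the 8, against 1455 of the 17988 features. FOSL1 had the largest positive value, 0.88 (SE 0.30, interval 0.25 to 1.52, limma adjusted p = 0.45). FOS was at -0.72 (SE 0.28, interval -1.31 to -0.12, limma adjusted p = 0.519). FOSB was at -0.59, a value that rested on the third shCTRL array with CDDP, without which it was -1.09 (limma adjusted p = 0.182). The values were -0.48 for JUNB, -0.23 for ATF3, -0.13 for FOSL2, -0.07 for JUND and 0.14 for JUN. So the pass of FOSL1 under one label and not the other is not shown to be a difference between responses. For ATF3 the interval of the difference was -0.90 to 0.44, and for JUN -0.41 to 0.70.

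Between shRNA labels without CDDP, 2 of the 8 genes passed, against 5.84% of all features (3.1% higher and 2.75% lower), FOSL1 lower and FOSL2 higher on arrays labelled shIRF1. FOSL1 was 2.23-fold lower (-1.15, SE 0.21, interval -1.61 to -0.70, limma adjusted p = 0.00345). These 3 arrays also enter the CDDP comparison in which FOSL1 rose, so the lower start and the larger rise are not independent. FOSL2 was 1.51-fold higher (0.60, SE 0.17, interval 0.24 to 0.96, limma adjusted p = 0.0495), a call lost under 14 of 25 alternatives, with adjusted p from 0.0224 to 0.375. Every one of the 3 shIRF1 arrays was above the 3 shCTRL arrays for FOSL2 and below them for FOSL1. ATF3 was at -0.48 and JUND at 0.33 without overlap (adjusted p = 0.291 and 0.364), and FOS, FOSB, JUN and JUNB lay between -0.15 and 0.08. In all, the groups did not overlap for 4 of the 8, against 25.1% of all features.

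With CDDP in both groups, none of the 8 passed by limma, against 3.85% of all features (1.65% higher and 2.2% lower). An unadjusted limma p under 0.05 was found for 3 of the 8, against 3276 of the 17988 features. FOS was -0.70 (SE 0.20, interval -1.12 to -0.28, adjusted p = 0.0643) and ATF3 -0.71 (SE 0.22, interval -1.18 to -0.23, adjusted p = 0.0956), and for both the 3 shIRF1 arrays lay below the 3 shCTRL arrays. FOS passed under 6 of 25 alternatives and ATF3 under 3 of 24, for example in the series matrix values (-0.67, adjusted p = 0.0162, and -0.70, adjusted p = 0.02). Their adjusted p ran from 0.0117 to 0.24 and from 0.0161 to 0.262. FOSL2 was 0.47 higher without overlap (SE 0.17, adjusted p = 0.141). FOSB was -0.51 (SE 0.31, adjusted p = 0.408), a value that rested on the third shCTRL array with CDDP, without which it was -1.01 and passed (adjusted p = 0.00793, within 0.00793 to 0.759 over its alternatives). JUNB was -0.42, FOSL1 -0.27, JUN -0.0076 and JUND 0.26. For 3 of the 8 the groups did not overlap, against 21.2% of all features.

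**Figure D3:**
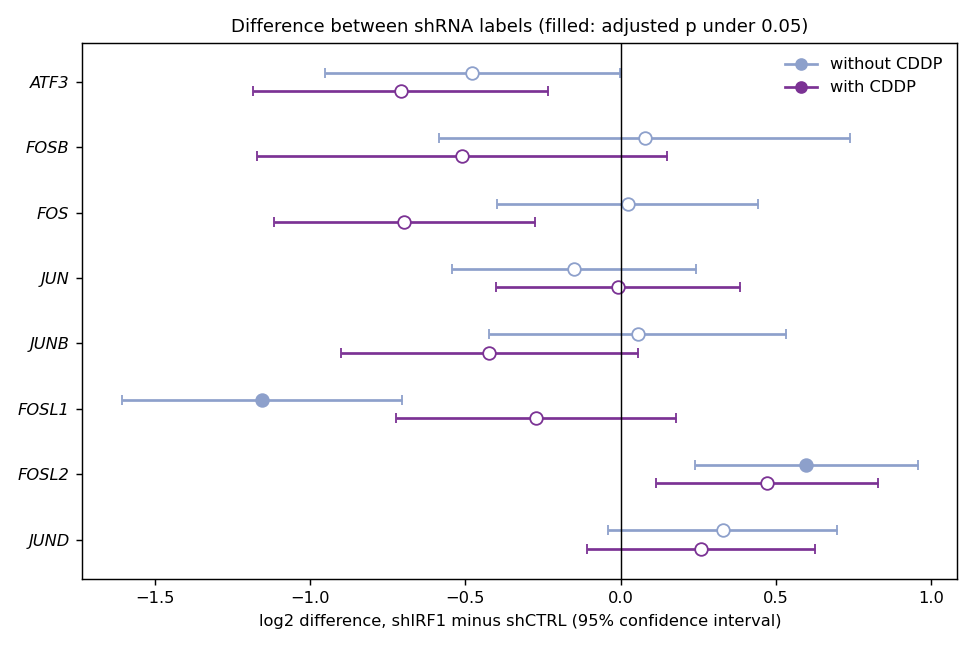
Log2 difference of arrays labelled shIRF1 from shCTRL for each gene without CDDP (light) and with CDDP (dark), with 95% confidence intervals from limma on 3 arrays per group. Filled points passed: FOSL1 at -1.15 and FOSL2 at 0.60, both without CDDP.

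The order of the 4 groups therefore differed by gene. For JUN, JUNB, FOS and FOSB the groups without CDDP came first and overlapped, followed by the groups with CDDP. ATF3 kept that order, with the shIRF1 group the lower of each pair by an amount that did not pass. FOSL1 ran from shIRF1 at 7.24 to shCTRL at 8.40, shIRF1 with CDDP at 8.49 and shCTRL with CDDP at 8.76, and shIRF1 with CDDP overlapped both shCTRL groups. FOSL2 ran from shCTRL at 6.07 to shCTRL with CDDP at 6.52, shIRF1 at 6.67 and shIRF1 with CDDP at 6.995, and the middle pair overlapped. The 4 JUND means lay between 12.37 and 12.70 with no difference that passed.

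The genes most alike to each of the 8 over the 12 arrays were taken by Pearson's r, as a description in which the CDDP split is shared by all. DDIT3 (CHOP), a stress-induced bZIP factor, was closest to FOS (r = 0.994) and second to ATF3 (0.990), behind TNFAIP3 (0.991). Next to FOS came SLC25A25 (0.992) and GTF2B (0.989), and AP3M2 was the third for ATF3 (0.990). FOSB was nearest to RASD1 (0.988), IL6 (0.988) and ZNF419 (0.985). JUN lay nearest to PPP1R15A (0.981), IER5 (0.981) and POLR2A (0.980), and JUNB to PTGS2 (0.963), DYNLT1 (0.958) and OGFR (0.958). FOSL1 was closest to RHOG (0.951), MTERF3 (0.945) and POLD1 (0.942), which lay 0.54 to 0.66 lower on arrays labelled shIRF1 without CDDP. FOSL2 was closest to BEX2 (0.954), the histone gene H2AC18 (0.953) and DNAJC27 (0.951). JUND was closest to ANAPC16 (0.939), NUCB2 (0.936) and OSBPL11 (0.927).

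Other bZIP proteins that pair with FOS or JUN, 13 genes of which 11 were on the array and 7 were tested, had 4 members that rose with CDDP under shCTRL and 3 on arrays labelled shIRF1, beside 13.5% and 10.5% of all features, and none fell. The small MAF proteins MAFF (2.79, SE 0.29, and 2.48) and MAFG (1.33, SE 0.23, and 1.19) and the JUN partner BATF3 (1.16, SE 0.22, and 1.10) rose under both labels, and MAF rose under shCTRL (0.81, SE 0.21, limma adjusted p = 0.00882). The list's median was 0.81 and 0.57, against 0.037 and 0.024 over all features. Between labels none of the 7 passed by limma without or with CDDP, against 5.84% and 3.85% of all features. An unadjusted limma p under 0.05 was found for 3 and 0 of them, against 3067 and 3276 of the 17988 features.

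Among 25 further bZIP factors of the CREB, ATF, CEBP and NRF type, 21 tested, 8 rose and 5 fell under shCTRL and 7 rose and 4 fell on arrays labelled shIRF1 (median 0.46 and 0.26). Of all features 13.5% rose and 13.5% fell in the first comparison, and 10.5% and 11.5% in the second. DDIT3 rose 13.2-fold (3.72, SE 0.20) and 7.91-fold (2.98, SE 0.20), and CEBPA, a differentiation factor, 3.70-fold (1.89, SE 0.24) and 2.36-fold (1.24, SE 0.24). ATF6, the sensor of the endoplasmic reticulum, fell by 1.41 and 1.32 on the log2 scale. Without CDDP, 3 of the 21 were higher and 1 lower on arrays labelled shIRF1, against 3.1% and 2.75% of all features. CEBPD (1.85, SE 0.22), CEBPA (1.00, SE 0.24) and DBP (0.72, SE 0.20, limma adjusted p = 0.049) were higher and ATF5 (-1.12, SE 0.23) lower. With CDDP none of the 21 passed by limma, against 3.85% of all features. An unadjusted limma p under 0.05 was found for 4 of the 21, against 3276 of the 17988 features.

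Of 30 genes of the ERK, JNK and p38 cascades, 25 tested, 2 rose and 9 fell under shCTRL, and 1 rose and 8 fell on arrays labelled shIRF1 (median -0.39 and -0.29). Over all features 13.5% rose and 13.5% fell under shCTRL, and 10.5% rose and 11.5% fell on arrays labelled shIRF1. MAP3K5 (ASK1), which activates JNK and p38, fell by 1.78 (SE 0.24) and 1.41 (SE 0.24). MAP2K4, a kinase of JNK, fell by 1.13 under shCTRL (SE 0.30, limma adjusted p = 0.0111). MAP2K5 was at least 3.45-fold lower under shCTRL, where no CDDP array detected it, and fell by 1.26 on arrays labelled shIRF1. Its substrate MAPK7 (ERK5) rose by 1.48 (SE 0.23) and 1.22 (SE 0.23). Between labels without CDDP, 2 of the 25 were higher and 1 was lower, against 3.1% and 2.75% of all features. MAPKAPK2, the kinase downstream of p38, was lower (-0.97, SE 0.18) on arrays labelled shIRF1. MAP2K3 (0.96, SE 0.20) and MAP3K1 (0.81, SE 0.20) were higher there. With CDDP none of the 25 passed by limma between labels, against 3.85% of all features.

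Of 7 genes of serum response factor, which drives FOS transcription, and its partners, 1 rose, 2 fell and 4 did not pass under shCTRL. On arrays labelled shIRF1, 2 rose, 2 fell and 3 did not pass. Over all features 13.5% rose and 13.5% fell, then 10.5% and 11.5%. SRF rose under both labels (0.53, SE 0.16, and 0.47, SE 0.16), and ELK4 rose on arrays labelled shIRF1 (0.73, SE 0.15). The coactivators MRTFA (-1.62, SE 0.27, and -1.28) and MRTFB (-1.29, SE 0.34, and -1.13) fell under both. Between labels without CDDP 1 of the 7 passed, against 5.84% of all features. This was FHL2, lower on arrays labelled shIRF1 (-0.69, SE 0.18, limma adjusted p = 0.0315). The list's median was -0.09 and 0.10.

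Of 17 factors that degrade or stabilise FOS and JUN proteins or mRNAs, 16 tested, 1 rose and 8 fell under shCTRL and 1 rose and 7 fell on arrays labelled shIRF1 (median -0.54 and -0.33), beside 13.5% higher and 13.5% lower, and 10.5% and 11.5%, over all features. The ubiquitin ligases COP1 (-2.34, SE 0.20, and -1.69) and ITCH (-1.48, SE 0.21, and -1.47), which act on JUN proteins, and the deadenylase PARN (-2.33, SE 0.24, and -2.13) fell. Between labels without CDDP, 1 of the 16 was higher and 1 was lower, against 3.1% and 2.75% of all features. With CDDP none was higher and 1 was lower, against 1.65% and 2.2%. PARN was the one lower on arrays labelled shIRF1 without CDDP (-1.42) and with it (-1.22, limma adjusted p = 0.0101). ZFP36 (tristetraprolin), which binds AU-rich elements and speeds mRNA decay, rose by 2.23 (SE 0.23) and 1.61 (SE 0.23), and was also higher on arrays labelled shIRF1 without CDDP (1.33, SE 0.23, limma adjusted p = 0.00184).

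Genes described as AP-1 targets, 34 of which 27 were tested, rose in 9 cases and fell in 1 under shCTRL, and rose in 12 and fell in 2 on arrays labelled shIRF1 (median 0.28 and 0.43), where 13.5% and 13.5%, then 10.5% and 11.5%, of all features did. IL6, CXCL8 and HBEGF, secreted signals, rose by 4.15 to 5.06 under shCTRL and by 3.90 to 4.58 on arrays labelled shIRF1. PTGS2, the inducible cyclooxygenase, was at least 7.12-fold higher under shCTRL, where no array without CDDP detected it, and rose by 2.50 on arrays labelled shIRF1. Between labels without CDDP, 1 of the 27 was higher and 3 were lower, against 3.1% and 2.75% of all features. With CDDP 1 was higher and 2 were lower, against 1.65% and 2.2%. SPHK1, a lipid kinase, and the collagenase MMP1 were lower on arrays labelled shIRF1 in both states. Without CDDP they differed by -2.32 (SE 0.33) and -1.58 (SE 0.29), and with it by -1.89 (SE 0.33) and -1.88 (SE 0.29). The integrin chain ITGB4 was higher in both states (1.46 and 1.01, SE 0.21), and the matrix protein CCN1 was lower without CDDP (-0.87, SE 0.20, adjusted p = 0.0147).

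**Figure D4:**
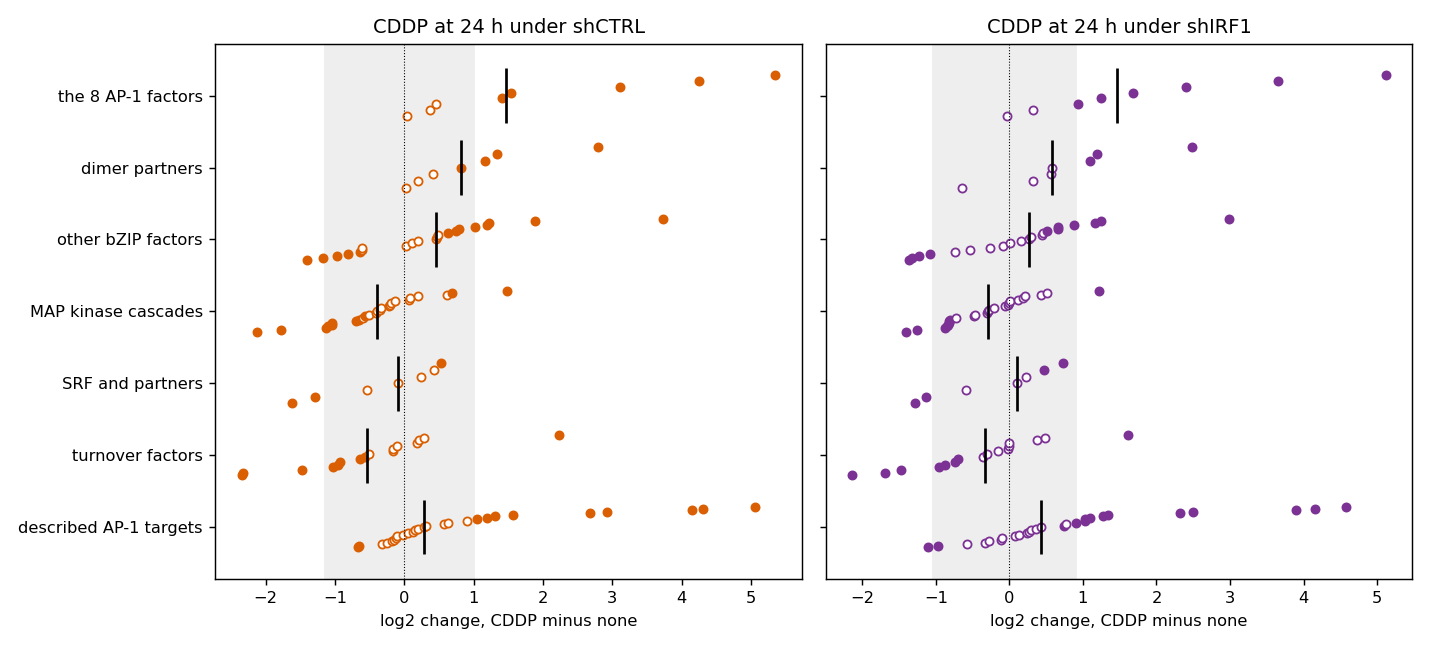
Log2 change with CDDP under shCTRL (left) and on arrays labelled shIRF1 (right) for the 8 AP-1 factors and the tested genes of 6 related lists. Points are genes (filled where they passed), vertical bars are list medians, and the grey band holds the central 90% of all 17988 features. The AP-1 factors have the highest median, 1.47 and 1.46, and MAP kinase cascades lie at -0.39 and -0.29.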

How the data were processed

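Messenger RNA was measured on 12 arrays. For each probe the deposited non-normalized table gives, per its file headers, an average bead intensity on a linear scale without scaling between arrays and a detection p-value against the negative controls, as deposited. Per the submitters' processing notes BeadStudio 2 was used. A second intensity comes from the authors' series matrix, which is linear in the signal of its array (factor 1.37 to 2.66, constant -116 to -14.2, column medians 116 to 132). Its scale is linear, uncentred and brighter is higher, and what set the factors stays unknown. No genome build is named for the array annotation in the labels or headers.

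Normalization used limma 3.58.1 (R 4.3.3) and its neqc function (normexp with negative controls inferred from the detection p-values, offset 16, quantiles, log2). The 22260 probes with a detection p under 0.05 on 3 or more arrays entered, and the brightest probe stood for each gene, which left 17988 features, 12492 of them named. Probes with 1 symbol numbered 30109, with several 8 and unnamed 17196, and symbols were updated through Entrez identifiers for 30070 with RefSeq names. One mean per group was fitted over 12 arrays (lmFit, then eBayes, with 8 residual degrees of freedom and 7.18 from the prior), in 5 comparisons. Intervals are 95% confidence intervals. The fit was tested on simulated data with independent noise on each array. Variation shared by arrays of the same replicate number was not simulated.

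A change against a group in which no array detected any probe is a lower bound, set against the lowest detected signal of each array. Named genes are the 8 members, IRF1, at most 4 genes of each list per comparison (passing genes first, then by size) and the 3 genes most alike to each member by r. The marker genes and ranges over markers are a check outside that rule. The members and lists were chosen with earlier results of these data known. The number of arrays limits the precision. Alternatives changed the background step, scaling, source, filter, variance model, weights, samples, block and probes, or left out arrays.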

Additional observations from a re-analysis of the deposited data

How the results depend on the processing

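The rises of ATF3, FOSB, FOS, JUN and JUNB with CDDP under both labels, and the rise and the lower start of FOSL1 on arrays labelled shIRF1, kept direction and call in every alternative that tested them. The fits with detection at 0.01 on all arrays did not test FOSB and ATF3. Of 982 member values under alternatives, 929 kept direction and side of the threshold. The size of the 2 largest rises depended on the background step: with an offset of 50, ATF3 rose by 4.74 and 4.33 and FOSB by 3.25 and 2.73, and in the series matrix by 4.60 and 4.16, and 3.075 and 2.56. The number of the 8 genes that passed between labels without CDDP was 1 in place of 2 without background correction, with median scaling, in the series matrix, with a variance trend and with every probe a feature, and 1 to 2 with an array left out, since FOSL2 lost its call. With CDDP it was 2 in place of 0 without background correction, with an offset of 50 and in the series matrix, 1 with detection at 0.01, with a variance trend and with both arrays of lowest weight left out together (the third shCTRL and the first shIRF1 array with CDDP, a choice made after seeing the data), and 0 to 1 with an array left out. The cause was not tested. Sign changes were limited to values that did not pass. For JUND under shCTRL the value was -0.045 without those 2 arrays and -0.045 to 0.16 with 1 array left out, and for JUND on arrays labelled shIRF1 it was 0.022 with median scaling, 0.022 with array weights, 0.059 without those 2 arrays and -0.12 to 0.059 with 1 left out. For FOS between labels without CDDP it was -0.0050 with median scaling, -0.015 with array weights and -0.15 to 0.16 with 1 left out, for JUNB there -0.13 to 0.23, and for JUN with CDDP -0.13 to 0.087. In the interaction it was 0.016 for FOSL2 with median scaling, -0.11 for JUN and 0.10 for JUND without those 2 arrays, and -0.19 to 0.018 for JUND with 1 left out.

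Over all features, median scaling gave 2984, 2228, 500, 310 and 7 calls in place of 4849, 3960, 1051, 692 and 12 (CDDP under shCTRL, CDDP under shIRF1, labels without and with CDDP, interaction). It turned the split under shCTRL with CDDP from 2425 higher and 2424 lower to 1117 and 1867, and that between labels with CDDP from 296 and 396 to 176 and 134. The label comparison with CDDP had 329 calls with only the groups compared, 410 without the 2 arrays of lowest weight, and 357 to 737 with 1 array left out. Without CDDP the latter range was 569 to 1160. The interaction had 22 calls in the series matrix, 5 with detection at 0.01, 19 with array weights, 1 without the 2 arrays and 2 to 14 with 1 left out. Titles number the samples 1 to 3 in each group. Deviations from the group means correlated over 0.1 in 10 of 18 same-numbered pairs (-0.03 to 0.24) and in 0 of 36 other pairs (-0.23 to 0.096). Of the 12 arrays, 10 correlated best with their own number. So arrays of the same number shared some variation. What the numbers stand for is not given, and the main fit did not use them. With the replicate number as a replicate block, 5, 6, 2, 0 and 0 of the 8 genes passed in the 5 comparisons and 5226, 4294, 1210, 835 and 13 features, and no call of the 8 genes changed. The planned slide block was not run, since the headers name no slide. Signals near background limit FOSB without CDDP and 2 ATF3 probes.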
